A study of Mus musculus with 12 samples.

Results

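RNA levels measured on microarrays in whole mouse liver were compared between arrays labelled as fasted livers without hepatocyte FoxO and arrays labelled as refed control livers. Of the 12 arrays of the series, the 6 used here were the 3 labelled L-FoxO1,3,4-fasted and the 3 labelled WT-refed, chosen by their source label. The arrays labelled fasted TKO (triple knockout) came from mice whose hepatocytes were made to lack FoxO1, FoxO3 and FoxO4, collected after 22 h of fasting. The arrays labelled refed WT came from littermate controls collected 4 h into refeeding. All mice were on a mixed C57BL/6J and 129 background and were matched for age and sex, whose values the labels do not give. The driver of the deletion and the length of the fast before refeeding are not stated in the sources used here, and liver cells other than hepatocytes keep the 3 genes by design. The groups differ in genotype and in feeding at once, so a difference between them cannot be assigned to either factor.

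FoxO proteins are transcription factors of the fasted hepatocyte. Insulin, which rises with feeding, has them phosphorylated and moved out of the nucleus. In the fasted liver they raise genes of glucose production and of the fasting response. On feeding, insulin also raises genes of glucose use and fatty acid synthesis. The comparison asks how far a liver that lacks FoxO while fasting differs from one in which feeding is expected to have removed FoxO from the nucleus.

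Of the 3 targeted genes, Foxo1 and Foxo4 were not lower in the arrays labelled knockout than in those labelled refed control, which also differ in feeding. Foxo1 had log2 values of 9.18, 9.33 and 9.41 in the arrays labelled fasted TKO, against 9.04, 9.02 and 8.84 in those labelled refed WT. Foxo4 had 6.99, 6.89 and 7.35 in the arrays labelled fasted TKO, against 6.20, 5.86 and 6.29 in those labelled refed WT. Every array labelled knockout thus lay above every array labelled control for both genes. The log2 difference was 0.34 for Foxo1 (SE 0.11, 95% interval 0.07 to 0.61, adjusted p = 0.238) and 0.95 for Foxo4 (SE 0.17, 95% interval 0.54 to 1.37, adjusted p = 0.075), and neither passed the test. Foxo3 had 8.03, 7.65 and 8.01 in the arrays labelled fasted TKO, against 7.89, 7.99 and 7.86 in those labelled refed WT, and the groups overlapped (log2 difference -0.02, 95% interval -0.34 to 0.30).

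**Figure D1:**
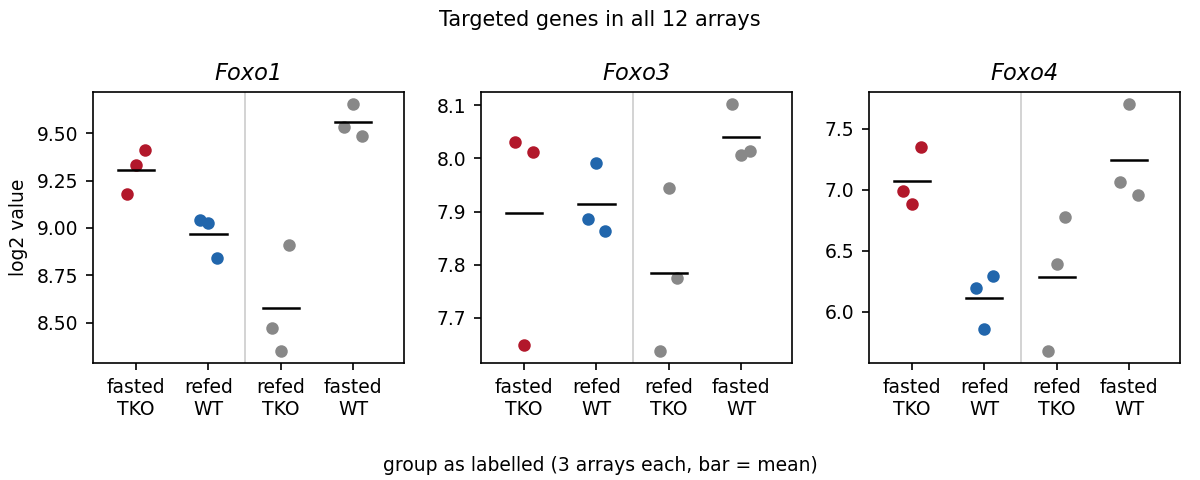
Log2 values of Foxo1, Foxo3 and Foxo4 (vertical axes, each with its own range) in each of the 12 arrays, by group as labelled; points are arrays and bars are means of 3. Foxo1 and Foxo4 were higher in the arrays labelled fasted TKO than in those labelled refed WT, and separated all 12 arrays by the feeding label.

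Across all 12 arrays, Foxo1 and Foxo4 separated completely by the feeding label. Foxo1 lay between 9.18 and 9.65 in the 6 arrays labelled fasted, against 8.35 to 9.04 in the 6 labelled refed. Foxo4 lay between 6.89 and 7.70 in the arrays labelled fasted, against 5.68 to 6.78 in those labelled refed. With both feeding states pooled, the genotype labels overlapped, with Foxo1 at 8.35 to 9.41 in arrays labelled TKO against 8.84 to 9.65 in those labelled WT. At matched feeding labels, Foxo1 was lower on average in the arrays labelled TKO. It lay at 9.18 to 9.41 in the arrays labelled fasted TKO, against 9.48 to 9.65 in those labelled fasted WT, without overlap. It averaged 8.58 ± 0.29 in the arrays labelled refed TKO, against 8.97 ± 0.11 in those labelled refed WT (SD, n = 3 each), and these ranges overlapped. Foxo3 averaged 7.90 ± 0.22 in the arrays labelled fasted TKO, against 8.04 ± 0.05 in those labelled fasted WT, and 7.79 ± 0.15 in those labelled refed TKO, against 7.91 ± 0.07 in those labelled refed WT. Foxo4 averaged 7.07 ± 0.24 in the arrays labelled fasted TKO, against 7.24 ± 0.40 in those labelled fasted WT, and 6.28 ± 0.56 in those labelled refed TKO, against 6.12 ± 0.23 in those labelled refed WT. These matched differences were not tested. Where the probes of these features lie relative to the deleted exons is not stated in the sources used here, and a probe outside them would not show a deletion. If the labels of the 2 groups compared here were exchanged, the same ranges of Foxo1 and Foxo4 would split the 12 arrays by genotype and not by feeding. The sample titles begin with C in all arrays labelled WT and with I in all those labelled TKO. What these letters mean is not stated in the sources used here. Whether the labels were exchanged was not tested, and each direction below holds for the arrays as labelled. With the labels exchanged, every difference between these 2 groups would change its sign. Counts of higher and of lower features would trade places, and counts of both directions together would keep their size.

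The groups stood apart as whole profiles. Correlations over all 23238 features were 0.986 to 0.988 among the arrays labelled fasted TKO and 0.985 to 0.988 among those labelled refed WT, and 0.979 to 0.984 between the groups. The first principal component of the 6 arrays held 36.6% of the variance and gave scores of 21.5, 26.4 and 33.1 to the arrays labelled fasted TKO, against -27.4, -25.1 and -28.5 to those labelled refed WT. The mean scores differed by 54.1 (exact permutation p = 0.1, two-sided, the smallest p that 3 against 3 allows). Of the total sum of squares over all features, 36.2% lay between the groups (exact permutation p = 0.1, again the smallest possible). Both p-values remain 0.1 after Benjamini-Hochberg adjustment over these 2 tests.

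Of 23238 features, 147 (0.633%) differed between the groups in limma at an adjusted p under 0.05. Of these, 102 (0.439% of all features) were higher and 45 (0.194%) were lower in the arrays labelled fasted TKO. An unadjusted p under 0.05 was reached by 3465 features (14.9%), and 4790 (20.6%) had no overlap between the groups, 2674 (11.5%) higher and 2116 (9.11%) lower. The median log2 difference was 1.12 among the called features that rose and -1.50 among those that fell. The smallest called differences were 0.64 and -0.71, and the median absolute difference over all features was 0.15. Passing the threshold itself selects for size. Of the called features, 97 differed at least 2-fold (66 higher, 31 lower), as did 472 of all features (2.03%). Of features with 1 gene symbol 99 were called (0.663%), of those with several 8 (0.809%) and of those with none 40 (0.547%). Calls lay mostly among bright features, with 110 among the 7746 brightest (1.42%), 29 among the 7746 of middle level (0.374%) and 8 among the 7746 dimmest (0.103%). At the other end, 19789 features (85.2%) had a 95% interval that lay wholly within 1 log2 unit of no difference.

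The count of calls needed all 6 arrays. It fell to 0, 1 and 7 without replicate 1, 2 or 3 of the arrays labelled fasted TKO, and to 11, 0 and 0 without replicate 1, 2 or 3 of those labelled refed WT. In the 3 fits with 0 calls, 3256, 3087 and 2733 features still had an unadjusted p under 0.05 in limma. All 147 features kept their direction in each of these fits, which share most of their arrays with the full fit and are no independent support. The groups did not overlap for any of the 147, so leaving out 1 array could not change a direction.

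**Figure D2:**
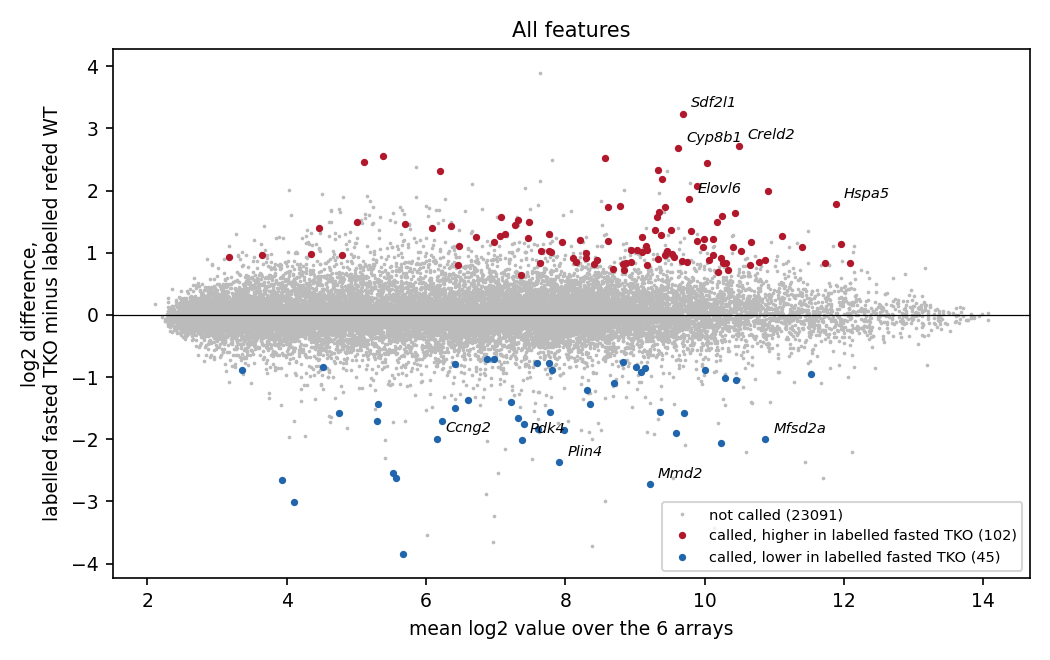
Log2 difference (labelled fasted TKO minus labelled refed WT, vertical axis) against the mean log2 value over the 6 arrays (horizontal axis) for all 23238 features; 1 point per feature. The 102 features called higher (red) and 45 called lower (blue) reach log2 differences of 3.24 and -3.84, and most lie at high mean values.

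A group of genes for protein folding in the endoplasmic reticulum headed the features that rose in the arrays labelled fasted TKO. Sdf2l1, a partner of the main chaperone of that compartment, had log2 values of 11.32, 10.69 and 11.90 in the arrays labelled fasted TKO, against 8.96, 7.67 and 7.57 in those labelled refed WT. This was a 9.43-fold rise (log2 difference 3.24, SE 0.45, adjusted p = 0.0474). Creld2, a protein of the same compartment that is induced when unfolded proteins collect there, had 12.00, 10.98 and 12.58 in the arrays labelled fasted TKO, against 9.27, 9.27 and 8.84 in those labelled refed WT (log2 difference 2.73, SE 0.39, adjusted p = 0.0488). The rule for naming these genes required that the groups not overlap. Replicate 2 was the lowest of the arrays labelled fasted TKO for both Sdf2l1 and Creld2. Hyou1, a large chaperone, rose 5.44-fold (11.25 ± 0.50 in the arrays labelled fasted TKO, against 8.81 ± 0.35 in those labelled refed WT, SD, n = 3 each). Manf, a small secreted protein of the compartment, rose 5.04-fold (10.50 ± 0.48 in the arrays labelled fasted TKO, against 8.17 ± 0.22 in those labelled refed WT). Hspa5, the main chaperone, also called BiP, had 12.80, 12.37 and 13.13 in the arrays labelled fasted TKO, against 11.24, 11.05 and 10.68 in those labelled refed WT (log2 difference 1.78, SE 0.23, adjusted p = 0.0399).

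Other genes that rose act in the same secretory path. Alg12, an enzyme that builds the sugar chain attached to new proteins, had 9.48 ± 0.11 in the arrays labelled fasted TKO and 7.74 ± 0.28 in those labelled refed WT (SD, n = 3 each). Gmppb, which makes the mannose donor for such chains, rose 2.98-fold. Sec23b, part of the coat of vesicles that leave the compartment, rose 3.03-fold, and Slc35b1, which carries ATP into it, 3.12-fold. Ern1, the sensor IRE1 for unfolded proteins, rose 2.16-fold (9.72 ± 0.14 in the arrays labelled fasted TKO, against 8.61 ± 0.09 in those labelled refed WT). Chaperones of the cytosol rose too: Hsph1 by 5.78-fold, and the cochaperones Chordc1, Stip1 and Fkbp4 by 3.32-fold, 2.81-fold and 2.58-fold. Hspa13, a chaperone relative found on microsomes, rose 3.38-fold.

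The promoters of 3 of these genes are shown because they hold the endoplasmic reticulum stress element, the site through which unfolded proteins are known to raise chaperone genes in mammals. Each window runs from 250 bases before to 50 bases after the annotated start (RefSeq, GRCm38.p6), 5′ to 3′ on the gene's strand, and capitals mark the element. The letters searched, on both strands, were CCAAT and CCACG with 9 bases of any kind between them.
Hspa5: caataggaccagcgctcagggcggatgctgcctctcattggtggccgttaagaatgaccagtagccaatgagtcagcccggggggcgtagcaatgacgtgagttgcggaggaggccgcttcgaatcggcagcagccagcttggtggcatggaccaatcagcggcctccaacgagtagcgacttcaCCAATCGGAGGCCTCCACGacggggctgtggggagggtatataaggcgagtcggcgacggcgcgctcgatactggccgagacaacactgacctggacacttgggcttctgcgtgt
Creld2: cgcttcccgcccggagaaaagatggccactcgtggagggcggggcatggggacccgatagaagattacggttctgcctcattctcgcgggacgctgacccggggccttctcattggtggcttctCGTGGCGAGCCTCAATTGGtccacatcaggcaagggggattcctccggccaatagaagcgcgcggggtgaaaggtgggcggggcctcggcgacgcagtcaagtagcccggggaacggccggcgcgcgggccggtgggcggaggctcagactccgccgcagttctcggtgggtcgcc
Alg12: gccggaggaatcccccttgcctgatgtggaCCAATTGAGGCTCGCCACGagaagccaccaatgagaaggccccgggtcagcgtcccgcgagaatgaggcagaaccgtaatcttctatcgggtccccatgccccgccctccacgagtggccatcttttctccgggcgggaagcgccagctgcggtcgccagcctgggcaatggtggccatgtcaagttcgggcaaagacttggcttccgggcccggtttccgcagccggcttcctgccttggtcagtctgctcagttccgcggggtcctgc

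The window of Hspa5 is chr2:34771840-34772139 on the plus strand, with the element starting 65 bases before the start. The windows of Creld2 (chr15:88819396-88819695, plus strand) and Alg12 (chr15:88819269-88819568, minus strand) share 173 bases, and the capitals in both mark the same element, read on opposite strands. Creld2 and Alg12 are therefore neighbours that start close together in opposite directions, and both rose. The element was in 39 of 32851 windows of this length (0.119%), and in a window of 37 of 27025 genes (0.137%). Of the 20 named genes that rose, 15 had a window and 3 of these held it, with Creld2 and Alg12 sharing 1 element. Of the 20 named genes that fell, 16 had a window and 0 held it. The windows of Sdf2l1, the largest called rise, and of Ern1 lacked it. Among other members of the lists below, windows of Calr, Derl3, Hsp90b1, Pdia6 and Syvn1 held it. Their means were higher in the arrays labelled fasted TKO, but they did not pass. Canx, with overlap between the groups (log2 difference 0.17), and Acacb, with a lower mean (-0.46), held it too. A second motif, GTAAACA on both strands, a sequence that FoxO proteins and other forkhead factors bind, was in 1199 windows (3.65%). By gene, 1095 of the 27025 had this motif in a window (4.05%). It was in 0 of the 3 windows shown, in the window of 1 of the 15 genes that rose (Elovl6) and of 0 of the 16 that fell. These are matches of letters in a short window and say nothing of binding. The genes that rose were named with these 3 in view, and no test was made.

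Metabolic genes stood beside the chaperones among the largest rises. Cyp8b1, which makes the precursor of cholic acid and so sets the composition of bile acids, had 11.20, 10.87 and 10.80 in the arrays labelled fasted TKO, against 8.77, 8.48 and 7.57 in those labelled refed WT. It rose 6.43-fold (log2 difference 2.69, SE 0.31, adjusted p = 0.0316). Elovl6, which lengthens palmitate in fatty acid synthesis, had 10.82, 10.68 and 10.62 in the arrays labelled fasted TKO, against 8.43, 9.15 and 8.97 in those labelled refed WT (3.63-fold, SE 0.19 on the log2 scale, adjusted p = 0.0262). The SD of Elovl6 was 0.10 among the arrays labelled fasted TKO and 0.37 among those labelled refed WT. Igfbp2, a secreted protein that binds insulin-like growth factors, rose 4.56-fold, and Slco1a4, an uptake carrier for organic anions, 3.15-fold. Cdk2ap2, Entpd7 and Cdh1, the last encoding the adhesion protein E-cadherin, rose 2.98-fold, 2.87-fold and 2.81-fold.

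Genes that fell in the arrays labelled fasted TKO included several known from the fasting response. Pdk4, which blocks the entry of pyruvate into the citric acid cycle during fasting, had 6.33, 6.45 and 6.33 in the arrays labelled fasted TKO, against 8.33, 8.02 and 8.78 in those labelled refed WT (log2 difference -2.01, SE 0.20, adjusted p = 0.0258). Ccng2, a cyclin that FoxO proteins are known to induce, had 5.16, 5.06 and 5.25 in the arrays labelled fasted TKO, against 7.26, 6.99 and 7.19 in those labelled refed WT (log2 difference -1.99, SE 0.12, adjusted p = 0.0151). Mfsd2a, a lipid transporter raised by fasting in mouse liver, had 10.07, 9.91 and 9.63 in the arrays labelled fasted TKO, against 11.91, 12.01 and 11.70 in those labelled refed WT (4.01-fold lower, 95% interval -2.36 to -1.64 on the log2 scale, adjusted p = 0.0151). The lower values of these 3 genes were in the arrays labelled fasted, and the rule for naming them required that the groups not overlap. Plin4, a coat protein of lipid droplets, fell by 2.36 on the log2 scale (6.73 ± 0.35 in the arrays labelled fasted TKO, against 9.09 ± 0.43 in those labelled refed WT, SD, n = 3 each).

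The remaining named falls were of mixed roles. Mmd2 fell by 2.72 on the log2 scale. Klhl24 had 8.59, 8.55 and 8.60 in the arrays labelled fasted TKO, against 9.98, 10.19 and 10.25 in those labelled refed WT. Rab30, a small GTPase of the Golgi, fell by 1.83, Csad, an enzyme of taurine synthesis, by 1.89 and St3gal6, a sialyltransferase, by 1.75. Slc44a3 and Ceacam2 fell by 1.85 and 1.65, and Cd9, a tetraspanin of the cell surface, by 1.39. The log2 differences of Bnc2, Themis and Adam11 were -1.71, -1.58 and -1.56. Those of Tcp11l2, St8sia3 and Tedc2 were -1.50, -1.44 and -1.43. Olfr703 and Olfr701, olfactory receptors of a large family of similar genes, fell by 2.62 and 2.54, and their probes may not tell family members apart. Of the 10 largest rises and the 10 largest falls, 7 and 6 features carried 1 gene symbol; the other named genes among the 20 each way were added after their values were seen. Feature 4642530, which carries none, had the largest fall of all called features (3.60, 3.17 and 4.47 in the arrays labelled fasted TKO, against 7.40, 7.78 and 7.58 in those labelled refed WT), and feature 4891822 the next (log2 difference -3.01).

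**Figure D3:**
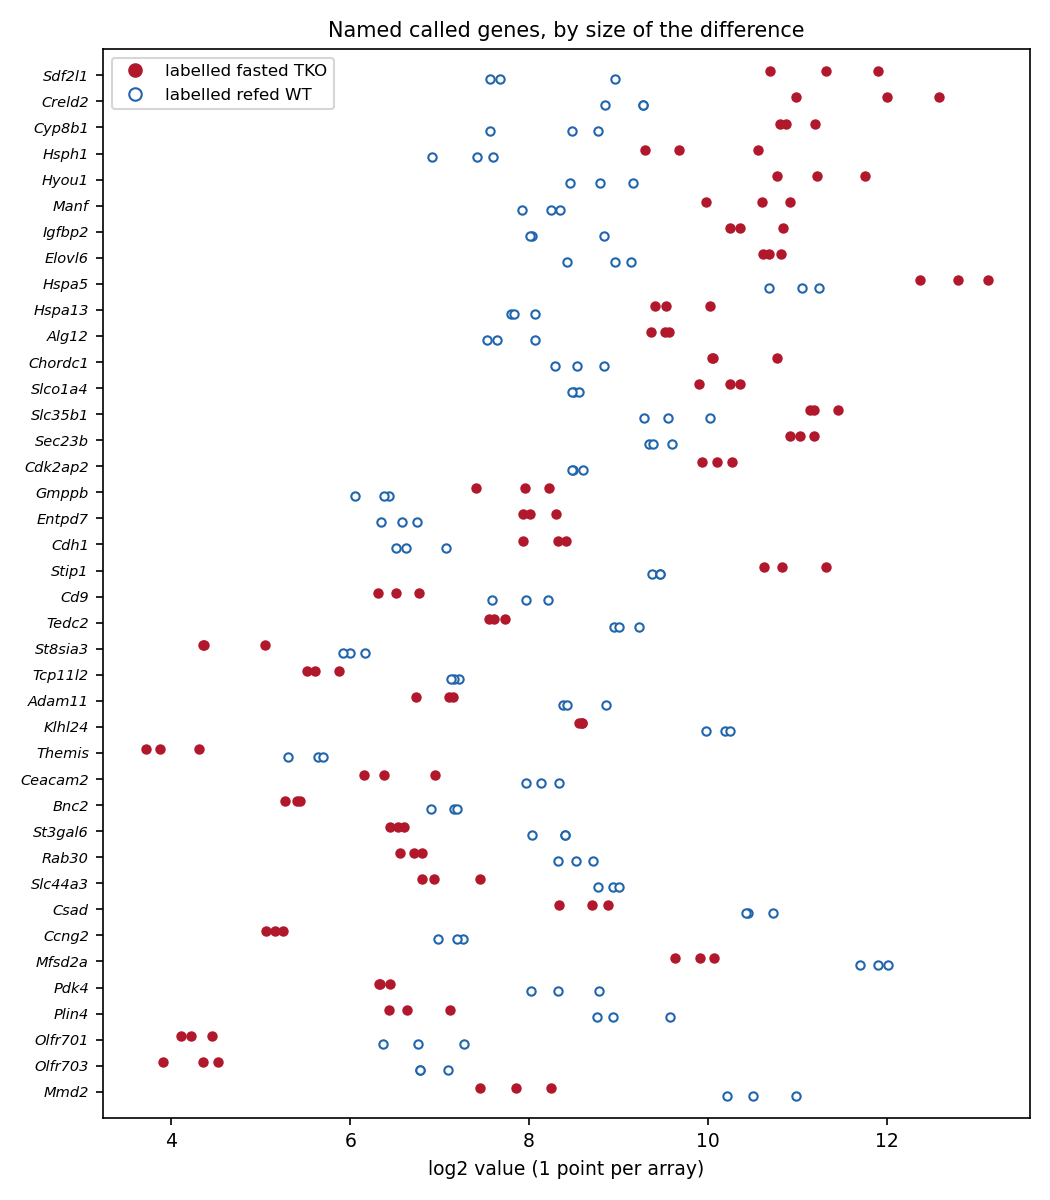
Log2 values (horizontal axis) of the 20 genes with the largest called rises and the 20 with the largest called falls, from the largest rise at the top to the largest fall at the bottom; filled points are the 3 arrays labelled fasted TKO and open points the 3 labelled refed WT. The groups do not overlap for any of these genes, which the rule for naming them required.

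Lists of genes of fasting and feeding metabolism were described by their counts. Over all features, 0.633% were called and 14.9% had an unadjusted p under 0.05 in limma. A difference above 0 was found for 51% of all features, and their median log2 difference was 0.01. Of the 7 measured genes of gluconeogenesis, 0 passed in limma (1 higher and 1 lower at an unadjusted p under 0.05), with a median log2 difference of -0.23. Pck1, the enzyme that commits carbon to glucose production, had 11.61, 12.17 and 12.29 in the arrays labelled fasted TKO, against 13.04, 12.89 and 12.70 in those labelled refed WT (log2 difference -0.86, 95% interval -1.34 to -0.37, adjusted p = 0.129). G6pc, which releases free glucose, had 10.52, 12.20 and 11.15 in the arrays labelled fasted TKO, against 12.00, 11.45 and 12.38 in those labelled refed WT, and the groups overlapped (95% interval -1.72 to 0.42). Of the 7 measured FoxO targets, Pdk4 fell and the others did not pass, with a median of -0.17. Igfbp1, a classic FoxO target, had 6.34, 6.31 and 7.37 in the arrays labelled fasted TKO, against 9.47, 8.37 and 7.84 in those labelled refed WT; the groups did not overlap, but their spread was large (log2 difference -1.89, SE 0.47, adjusted p = 0.142).

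In the list of glycolysis and lipogenesis, 1 of 11 measured genes rose (Elovl6) and the list's median was 0.42. Fasn, the fatty acid synthase, had 11.02, 10.90 and 11.24 in the arrays labelled fasted TKO, against 10.46, 9.60 and 9.26 in those labelled refed WT (log2 difference 1.28, SE 0.30, adjusted p = 0.127). Scd1, which makes monounsaturated fatty acids, lay the other way, at 12.79 ± 0.25 in the arrays labelled fasted TKO and 13.59 ± 0.20 in those labelled refed WT (SD, n = 3 each, adjusted p = 0.101). Srebf1, which encodes the insulin-induced regulator of these genes, differed by -0.08 (95% interval -0.83 to 0.67).

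All 6 measured genes of fatty acid oxidation and ketogenesis had lower means in the arrays labelled fasted TKO and 0 passed in limma (4 at an unadjusted p under 0.05), with a median of -0.42. Cpt1a, the carrier that admits fatty acids to mitochondria, differed by -0.52 (95% interval -0.99 to -0.05), Ppara, the receptor that drives these genes in fasting, by -0.58, and Fgf21, a hormone it induces, by -0.51. Of the 5 measured bile acid genes, Cyp8b1 rose, and the other 4 did not pass. Cyp7a1, the rate-limiting enzyme of bile acid synthesis, differed by 0.06 (95% interval -0.69 to 0.81), and Abcb11, the bile salt export pump, by 0.83 (adjusted p = 0.152). Of the 5 measured genes of cholesterol synthesis, 0 passed (0 at an unadjusted p under 0.05) and all had higher means in the arrays labelled fasted TKO. They varied widely between arrays: Sqle had 10.75, 9.25 and 10.92 in the arrays labelled fasted TKO, against 10.68, 8.74 and 7.33 in those labelled refed WT.

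**Figure D4:**
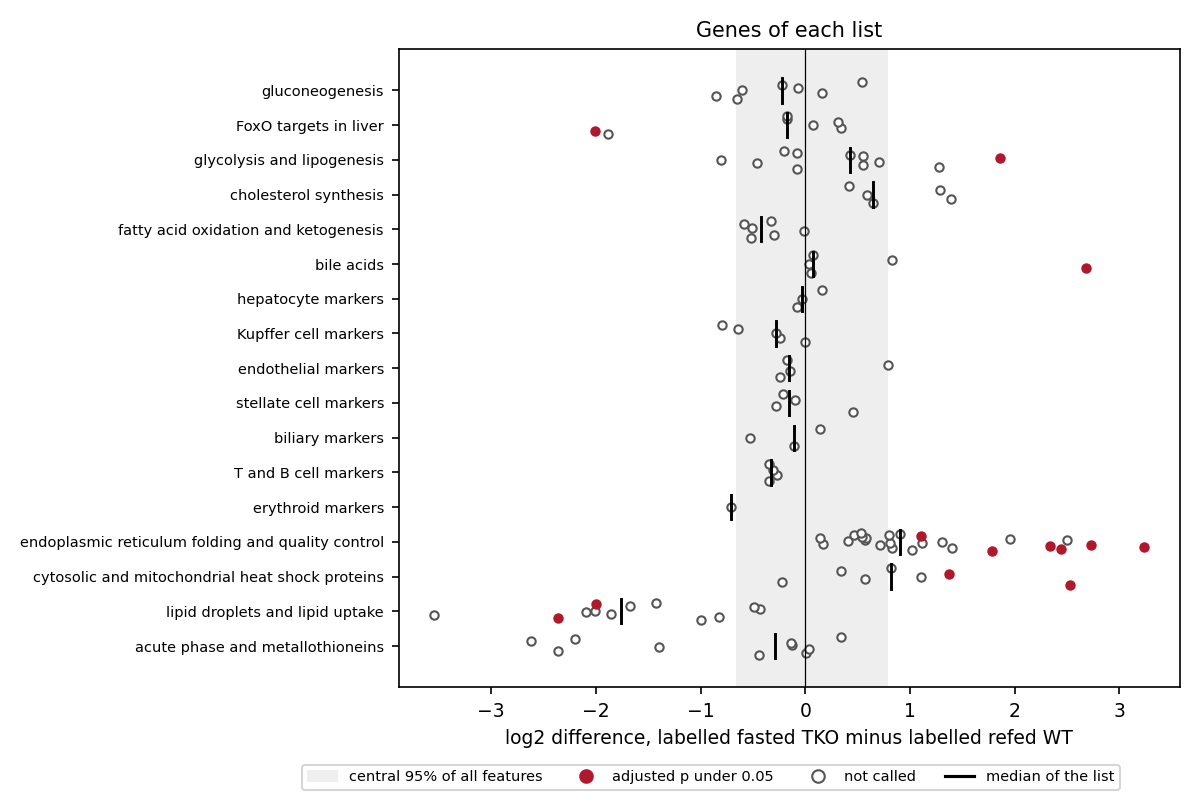
Log2 difference (labelled fasted TKO minus labelled refed WT, horizontal axis) of every measured gene of each list; filled points passed at an adjusted p under 0.05, open points did not, bars are list medians and the grey band is the central 95% of all features (-0.65 to 0.78). The list of folding in the endoplasmic reticulum has a median of 0.90 and that of lipid droplets -1.77; both were chosen after values were seen.

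A list for the endoplasmic reticulum and 3 more were added after values were seen, to show the measured members beside those already named, and are described with no test. The lists hold genes already seen to differ, so their counts were partly set by that choice. Over all features, 0.633% passed and 14.9% had an unadjusted p under 0.05 in limma. All 25 measured genes, of 27 listed, of folding and quality control in the endoplasmic reticulum had higher means in the arrays labelled fasted TKO; 6 passed, 23 had no overlap between the groups (20.6% of all features had none) and the median was 0.90. Differences ran from 0.14 for Herpud1 to 3.24 for Sdf2l1. Derl3, of the degradation machinery, had 9.93, 7.57 and 9.68 in the arrays labelled fasted TKO, against 6.66, 6.40 and 6.62 in those labelled refed WT and did not pass (adjusted p = 0.129). Xbp1, the transcription factor activated by Ern1, differed by 0.80 (adjusted p = 0.0739). All 12 genes of lipid droplets and lipid uptake had lower means in the arrays labelled fasted TKO. Of these, 2 passed, Plin4 and Mfsd2a, both already named for their fall, and 11 had no overlap, against 20.6% of all features. Plin5 and Angptl4, an inhibitor of lipoprotein lipase raised by fasting, lay just outside the threshold (adjusted p = 0.0502 and 0.0508). Of 7 heat shock genes outside the endoplasmic reticulum 2 passed, Hsph1 and Fkbp4, and of 10 acute phase and metallothionein genes 0 passed in limma (1 higher and 2 lower at an unadjusted p under 0.05).

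Of 5 listed hepatocyte markers 3 were measured and differed little, with Alb, Ttr and Hnf4a between -0.08 and 0.15. Alb and Ttr lay near the highest value of the arrays (14.1), where differences may be compressed. Of 21 measured markers (24 listed) of Kupffer, endothelial, stellate, biliary, lymphoid and erythroid cells, 0 passed in limma, against 0.633% of all features. An unadjusted p under 0.05 in limma was reached by 4, all lower, against 14.9% of all features in either direction. Means were lower in the arrays labelled fasted TKO for 18 markers, while 51% of all features had a difference above 0. In whole liver, fewer cells of a type and less RNA per cell cannot be told apart. The summed linear signal of the 5 Kupffer cell markers ran from 1084 to 1514 in the arrays labelled fasted TKO, against 1326 to 1974 in those labelled refed WT. That of the 4 lymphoid markers ran from 125.0 to 167.9 in the arrays labelled fasted TKO, against 171.5 to 205.5 in those labelled refed WT. The sums of 4 endothelial, 4 stellate cell and 3 biliary markers were 1048 to 1295, 1080 to 1351 and 215.2 to 284.5 in the arrays labelled fasted TKO. They were 1003 to 1410, 932.9 to 1500 and 231.4 to 255.6 in those labelled refed WT, so the groups overlapped for these 3 lists. Marco, a scavenger receptor of Kupffer cells, differed by -0.79 (adjusted p = 0.102 in limma). Alas2, the only measured gene of the 3 erythroid ones listed, differed by -0.71 (adjusted p = 0.142). The 3 markers with higher means were endothelial Lyve1 (0.79, without overlap), stellate cell Lrat (0.45) and biliary Sox9 (0.14). The part of other cell types in the results was not tested.

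Large differences were not always called. Of 52 features with a difference of at least 4-fold, 22 passed and 30 did not, 19 lower and 11 higher in the arrays labelled fasted TKO. All 30 had an SD over 0.5 log2 units in at least 1 group. The largest rise of any feature was that of Cyp2b10, a drug-metabolising enzyme, with 8.51, 10.56 and 9.68 in the arrays labelled fasted TKO, against 7.08, 4.79 and 5.22 in those labelled refed WT (log2 difference 3.89, SE 0.72, adjusted p = 0.0797). Sult1e1, a sulfotransferase for oestrogens, had 4.20, 5.10 and 6.12 in the arrays labelled fasted TKO, against 11.21, 9.50 and 5.66 in those labelled refed WT. Cidea, a lipid droplet protein, had 4.50, 4.36 and 3.87 in the arrays labelled fasted TKO, against 5.03, 8.45 and 9.89 in those labelled refed WT, so replicate 1 labelled refed WT lay near the arrays labelled fasted TKO. Mt1, a metallothionein, had 9.83, 9.32 and 12.02 in the arrays labelled fasted TKO, against 13.55, 12.92 and 12.56 in those labelled refed WT. Lcn2, an acute phase protein, had 9.09, 8.97 and 12.70 in the arrays labelled fasted TKO, against 13.71, 12.05 and 12.10 in those labelled refed WT. Replicate 3 of the arrays labelled fasted TKO was the highest of its group for both genes, and for Lcn2 it lay within the range of those labelled refed WT.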

How the data were processed

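The deposited log2 values were used as they stood, 1 per feature and array; the authors made them with RMA and Partek, per the submitters' processing notes, whose versions, roles and filters are not stated in the sources used here. The log2 scale was read from the values (1.84 to 14.1, array medians 5.81 to 5.90, 0 missing). Any centring is unknown, and signal over background is unknown, so the precision of dim values is too. The number of arrays limits precision.

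Features were named from the platform annotation, with symbols checked by Entrez ID against RefSeq (GRCm38.p6): 14939 had 1 symbol, 989 several and 7310 none. The 6 arrays were fitted with limma 3.58.1 in R 4.3.3 (lmFit, eBayes, 1 mean per group, 4 residual and 2.55 prior degrees of freedom), with Benjamini-Hochberg adjustment over all 23238 features. The fit was tested on simulated data. Nothing states that arrays are separate animals, so p-values measure only the spread between these samples. Log2 differences are labelled fasted TKO minus labelled refed WT. Genes named were the targeted genes, list members, and the 10 largest rises and falls without overlap at an adjusted p under 0.05, extended after seeing values to 20 features with 1 symbol each way. The comparison and lists were chosen with earlier results of these data known.

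Alternatives were removal of the 30% dimmest features, centring on array medians, weights per array, loess between arrays, eBayes with a trend and robust variance, a fit to all 12 arrays, other thresholds and leaving out each array.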

Additional observations from a re-analysis of the deposited data

How the results depend on the processing

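The 147 calls became 280 without the 30% dimmest features, 282 in a fit to all 12 arrays, 553 at an adjusted p under 0.1, 97 when a 2-fold difference was also required, and 320 among features with 1 gene symbol alone, an alternative added after seeing the data. Centring on medians gave 188, loess between arrays 172, eBayes with a trend and robust variance 179 and weights per array 193, and with 1 array left out the count ran from 0 to 11. The 147 features kept their direction in each refit that tested all of them, as did the 141 that remained without the 30% dimmest features and the 99 with 1 gene symbol. The groups did not overlap for any of the 147, so leaving out or weighting arrays could not change a direction. Of 72 genes and features followed through the alternatives, 39 were called. Of these, 0 kept their call under every alternative and 0 changed sign, with the same limit as for the 147. Of the 33 not called, 5 were called under at least 1 alternative and 4 changed sign. The count without overlap ran from 6696 to 7447 with 1 array left out. Fewer arrays leave less room to overlap. The share of variance was 40.3% without the 30% dimmest features, and 38.7% to 41.5% with 1 array left out. The difference on the first principal component was 55.4 to 58.4 with 1 array left out. The count of intervals within 1 log2 unit stayed within 1.5 times of 19789. No paired analysis was possible because replicate numbers follow accession order and pair no samples. Dim features could not be judged against background.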
